A study of Homo sapiens with 6 samples.

Results

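Transcript levels of the genes that make and oxidize hydrogen sulfide were compared between AsPC-1 cells infected with an empty lentivirus (Vector, 3 libraries) and AsPC-1 cells infected with a lentivirus that carries the coding sequence of MMP28 (OE-MMP28, 3 libraries). The set held 7 genes of the 58735 in the deposited table, chosen by name: CBS, CTH and MPST for synthesis, and SQOR, ETHE1, TST and SUOX for oxidation. The labels give the Vector cells as WT and the OE-MMP28 cells as MMP28 overexpression. The MMP28 virus also carried green fluorescent protein and puromycin resistance, and stably infected cells were selected with puromycin. The promoter that drove MMP28, the content of the empty virus and whether each line came from 1 clone were not given in the sources used here. AsPC-1 is a human cell line derived from a pancreatic cancer. MMP28, which encodes a secreted matrix metalloproteinase, measured 5.17, 9.11 and 8.43 FPKM in the Vector libraries (replicates 1 to 3, the order used throughout) against 13.1, 13.9 and 15.1 FPKM in the OE-MMP28 libraries, a log2 fold change of 0.90 (SE 0.19). FPKM are fragments scaled to gene length and to the library total, and every fold change here is OE-MMP28 over Vector.

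Hydrogen sulfide is a gas made in cells from the sulfur amino acids. CBS and CTH, enzymes of the route from homocysteine to cysteine, release it directly, and MPST takes sulfur from 3-mercaptopyruvate, a product of cysteine, and hands it to an acceptor such as thioredoxin. Sulfide blocks the last complex of the respiratory chain, and mitochondria remove it: SQOR oxidizes it at the inner membrane, passing its electrons to ubiquinone and its sulfur to a small acceptor such as glutathione, ETHE1 oxidizes the resulting persulfide to sulfite, TST moves sulfur between these compounds to make or use thiosulfate, and SUOX, a molybdenum enzyme, turns sulfite into sulfate.

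The largest difference of the set was at the first oxidation step. SQOR was 14.0-fold lower in the OE-MMP28 cells, whereas the log2 fold changes of the enzymes that follow it were 0.11 for ETHE1, -0.58 for TST and 0.28 for SUOX. Of the synthesis genes, MPST was 1.72-fold lower, CTH had a log2 fold change of -0.16, and CBS was at or near 0 counts in every library. The set was proposed from this same contrast, with the value of SQOR in view, so the values of the 7 genes are a description and no test is drawn from them. Calls past a threshold, in the main fit or in alternative fits, describe these genes in the same way and lend the set no support. Among the 6 that passed the filter on low counts, 2 were past the threshold of an adjusted p under 0.05, both of them lower, in a comparison in which 23.4% of all 15319 genes tested were past it and 11.6% were lower. Separation without overlap between the groups was seen for 3 of the 6 sulfide genes tested and for 38.1% of all genes tested. The median log2 fold change of the 6 was -0.37 and that of all genes tested was 0.014. In bulk RNA, fewer cells with a transcript and less of it per cell cannot be told apart.

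**Figure D1:**
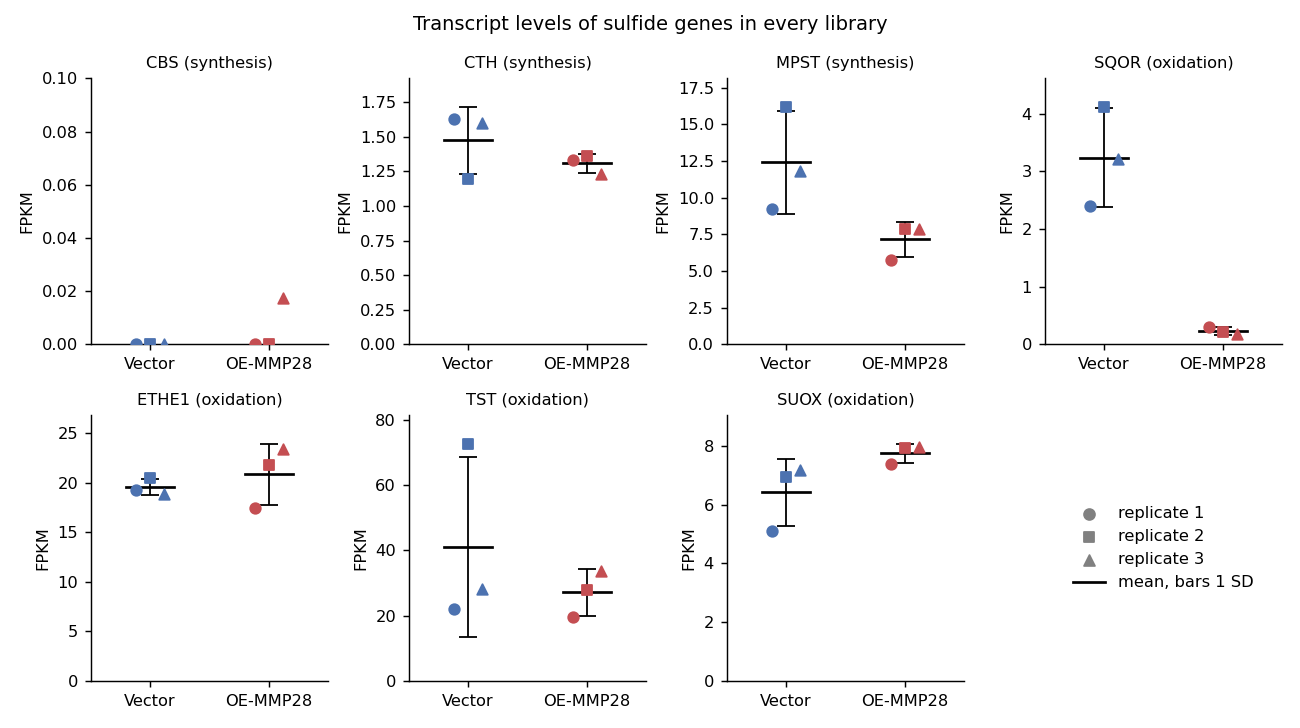
FPKM of the 7 sulfide genes (vertical axes, each on its own scale from 0) in the 3 Vector and 3 OE-MMP28 libraries, with the marker shape giving the replicate, a line for the mean and bars for 1 SD (none for CBS, which is at 0 in 5 libraries). The OE-MMP28 points of SQOR lie between 0.173 and 0.307 FPKM, below all Vector points, while those of ETHE1, TST and CTH overlap the Vector points.

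Library totals ranged from 13633249 to 16691458 counts, with all 3 OE-MMP28 totals above all Vector totals, so levels are given as FPKM and differences come from scaled counts. A count of 0, taken as allowing up to 3 counts, left a limit of 0.180 to 0.220 CPM (counts scaled to the library total), covering counting error only. Mitochondrial genes took 8.80% to 14.8% of the counts. All 6 epithelial markers (KRT7, KRT8, KRT18, KRT19, EPCAM and CDH1) had a mean over the libraries above 1 FPKM, although KRT7 was as low as 0.597 FPKM in at least 1 library, and none of the 5 fibroblast, 4 leukocyte, 3 endothelial and 5 acinar and islet markers was, with summed levels under 0.293 FPKM for each of these lists in every library. Of these markers, CD68, CELA3A and INS share 81.7%, 43.2% and 31.7% of their exon bases with another gene on the same strand. Their counts may therefore leave out reads in those exons. The labels gave no batch, and nothing in them said that replicates came from separate cultures, so the spread between replicates may be technical.

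CBS, the enzyme that condenses homocysteine with serine and can release sulfide while doing so (ENSG00000160200, chromosome 21, 43053191 to 43076943, minus strand, GRCh38), had 0 counts in all 3 Vector libraries and 0, 0 and 2 counts in the OE-MMP28 libraries. It was too low to be tested, and no difference was detectable at this depth. These counts are uncertain in a way that depth does not show. The assembly holds a near-identical copy, CBSL (ENSG00000274276, chromosome 21, 6444869 to 6468040, minus strand), and 54.5% of the distinct 50-base stretches of CBS transcripts also occur in CBSL. CBSL had 2 counts in Vector replicate 3 and 0 elsewhere, and how reads that match both places were counted is not given in the sources used here.

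CTH, the enzyme that cleaves cystathionine to cysteine and also makes sulfide (ENSG00000116761, chromosome 1, 70411218 to 70439851, plus strand), was expressed at a low level in all 6 libraries. It was at 1.63, 1.20 and 1.60 FPKM in the Vector libraries and at 1.34, 1.36 and 1.23 FPKM in the OE-MMP28 libraries, from 39 to 60 counts. Vector replicate 2 was the lowest of the 6 and the groups overlapped. The log2 fold change was -0.16 (SE 0.28), and no fit that left out a library moved it outside -0.29 to -0.088.

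MPST (ENSG00000128309, chromosome 22, 37019635 to 37029822, plus strand) was the highest of the synthesis genes and the only one of them whose groups did not overlap. Its FPKM was 9.23, 16.2 and 11.8 in the Vector libraries and 5.74, 7.85 and 7.85 in the OE-MMP28 libraries. Every OE-MMP28 library lay below every Vector library, although the gap between Vector replicate 1 and the highest OE-MMP28 libraries was small beside the spread of the Vector group. The group values were 12.4 ± 3.52 and 7.15 ± 1.22 FPKM (SD, n = 3), and the log2 fold change was -0.78 (SE 0.19), or -0.54 without Vector replicate 2. MPST was past the threshold in 16 of 19 alternative fits and not in the 3 that used FPKM in place of counts. The 16 include the fit on the summed counts of MPST and TST, at -0.68, which is not a value of MPST alone. MPST lies head to head with TST on the opposite strand, and the 2 genes share 6 exon bases. No stretch of 100 bases of either transcript occurs in another gene of the annotation.

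SQOR, sulfide quinone oxidoreductase (ENSG00000137767, chromosome 15, 45631148 to 45691294, plus strand), carried the largest difference of the set. It drew 113, 172 and 146 counts in the Vector libraries against 15, 10 and 9 counts in the OE-MMP28 libraries. Per gene length this was 2.39, 4.12 and 3.21 FPKM against 0.307, 0.204 and 0.173 FPKM. The lowest Vector library was thus well above the highest OE-MMP28 library, and each OE-MMP28 library still held more than the 3 counts that a count of 0 allows. The group values were 3.24 ± 0.864 and 0.228 ± 0.0701 FPKM (SD, n = 3), and the log2 fold change was -3.81 (SE 0.32). Of the 15319 genes tested, 25 had a lower log2 fold change. Ranked by mean FPKM among the genes tested, SQOR went from percentile 42.6 in the Vector group to percentile 4.73 in the OE-MMP28 group. Its difference stayed between -4.08 and -3.60 when any 1 library was left out, and SQOR was past the threshold in 17 of 18 alternative fits, the exception being limma on log2(FPKM + 1) when low values were kept, where the difference was -1.77 on that scale.

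An overlapping gene on the same strand bears on what the SQOR counts can hold. AC090527.2 (ENSG00000260170, chromosome 15, 45587351 to 45676314, plus strand) starts within BLOC1S6 and ends within SQOR, and 881 of its 1060 exon bases lie in SQOR exons, 175 in BLOC1S6 exons and 4 in neither. Seen from SQOR, 28.5% of its 3088 exon bases, in 5 of its 13 merged exons, were shared with AC090527.2, and 2207 bases were not. AC090527.2 had 0 counts in all 6 libraries. No read in the shared exons was therefore credited to AC090527.2 in either group. Whether reads in shared exons were credited to SQOR or dropped is not given in the sources used here. Had they been dropped, all SQOR counts would come from its 2207 unshared bases, and the FPKM on that length would be 4.53 ± 1.21 in the Vector group and 0.319 ± 0.0981 in the OE-MMP28 group (SD, n = 3). The level would then be 1.40-fold higher in both groups, and the fold change would be the same because 1 length applies to both. Adding the counts of the overlapping row to those of SQOR could not change any library's count, since they were all 0, and so checks nothing.

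The nearest expressed genes on either side of SQOR were not past the threshold. BLOC1S6, a subunit of a complex that builds lysosome-related organelles and the nearest expressed gene before SQOR, 15.1 kb away, went from 6.70 ± 0.171 to 5.82 ± 1.32 FPKM (SD, n = 3). The groups overlapped, and the log2 fold change was -0.19 (adjusted p = 0.444, edgeR). AC044787.1, the nearest expressed gene after SQOR, 2039 kb away, was at 0.25 (adjusted p = 0.492, edgeR). The 103 other genes tested within 5 Mb had a median log2 fold change of -0.042, with 9 lower and 6 higher past the threshold. Over all genes tested, 11.6% were lower and 11.7% higher past it. The highest, DUOXA2 at 2.46 (adjusted p = 0.000316, edgeR), and its neighbour DUOX2 at 2.38 (adjusted p = 2.99e-06, edgeR), a maturation factor and the oxidase it serves, lie within 1 Mb of SQOR and rose. The lowest was DLL4, a Notch ligand, at -2.97. These 3 genes were named after their values were seen.

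**Figure D2:**
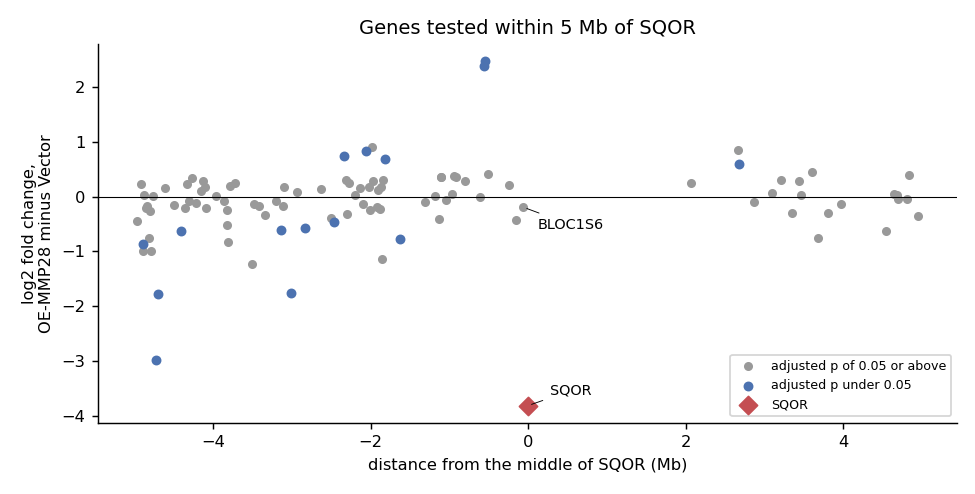
Log2 fold change (vertical axis, OE-MMP28 over Vector) of SQOR and of the genes tested within 5 Mb, by distance from the middle of SQOR in Mb (horizontal axis). Blue points have an adjusted p under 0.05, and SQOR at -3.81 lies below all 103 other genes, whose lowest value is -2.97 and highest 2.46.

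ETHE1, the persulfide dioxygenase that acts on the product of SQOR (ENSG00000105755, chromosome 19, 43506719 to 43527244, minus strand), was at 19.3, 20.4 and 18.9 FPKM in the Vector libraries and at 17.4, 21.8 and 23.4 FPKM in the OE-MMP28 libraries. OE-MMP28 replicate 1 was the lowest of the 6 and OE-MMP28 replicate 3 the highest, so the Vector values lay inside the range of the other group. The log2 fold change was 0.11 (SE 0.17), between 0.015 and 0.21 over the fits that left out 1 library. An antisense gene, ZNF575, covers 14.8% of the ETHE1 exon bases, and its counts of 26 to 49 per library were small beside the 442 to 631 of ETHE1. The ratio of ETHE1 to SQOR, both in FPKM, was 8.06, 4.96 and 5.88 in the Vector libraries and 56.7, 107 and 135 in the OE-MMP28 libraries.

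The windows around the starts of SQOR and ETHE1 are given because these genes hold consecutive steps of sulfide oxidation and had unlike fold changes. Each window runs from 250 bases before to 50 bases after the start of a RefSeq transcript (assembly GRCh38.p14), at chr15:45634779-45635078 on the plus strand for SQOR and chr19:43527152-43527451 on the minus strand for ETHE1, and capitals mark matches to the motifs searched on both strands. The SQOR window lies inside the gene as counted, which begins at 45631148, so it does not cover that gene's first annotated base. The ETHE1 window does cover the first base of the counted gene, at 43527244.
SQOR: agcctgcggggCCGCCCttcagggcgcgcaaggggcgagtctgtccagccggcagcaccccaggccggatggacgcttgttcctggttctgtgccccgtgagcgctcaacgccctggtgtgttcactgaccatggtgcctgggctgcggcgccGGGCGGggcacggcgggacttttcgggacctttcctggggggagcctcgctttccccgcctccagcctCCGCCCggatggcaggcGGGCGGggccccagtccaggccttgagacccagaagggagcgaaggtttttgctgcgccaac
ETHE1: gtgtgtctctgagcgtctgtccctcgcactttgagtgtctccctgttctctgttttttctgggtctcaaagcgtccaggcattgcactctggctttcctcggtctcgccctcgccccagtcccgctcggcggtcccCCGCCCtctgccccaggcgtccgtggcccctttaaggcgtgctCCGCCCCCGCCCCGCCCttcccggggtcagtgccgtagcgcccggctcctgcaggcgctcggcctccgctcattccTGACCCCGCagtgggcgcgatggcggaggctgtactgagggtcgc
The search covered GGGCGG, the core of the GC box that Sp factors bind. It also covered the CCAAT box in its plain spelling and the TATA box spelled TATAAA. The core of a hypoxia response element was spelled ACGTG, and that of an antioxidant response element was spelled TGACNNNGC. Both windows were rich in G and C, at 70.7% for SQOR and 68.3% for ETHE1 against a median of 58.7% over 35116 promoter windows of the same length, and held 26 and 28 CpG dinucleotides against a median of 14. Each held 4 matches to GGGCGG, some of them side by side in ETHE1, and 45.0% of all windows held at least 1. ETHE1 also held 1 match to TGACNNNGC, which 13.3% of all windows held and SQOR did not. The CCAAT box, the TATA box and the hypoxia element core, found in 34.6%, 11.5% and 21.4% of all windows, matched neither. These matches describe the letters and are not shown to be bound.

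TST, the rhodanese that transfers sulfur between persulfides, sulfite and thiosulfate (ENSG00000128311, chromosome 22, 37010859 to 37020183, minus strand), had the highest mean level of the set in both groups and the widest spread. It was at 22.1, 72.7 and 28.2 FPKM in the Vector libraries and at 19.5, 27.9 and 33.8 FPKM in the OE-MMP28 libraries. Vector replicate 2 stood apart from the other 5 libraries, which lay between 19.5 and 33.8 FPKM with the groups interleaved. The group values were 41.0 ± 27.6 and 27.1 ± 7.19 FPKM (SD, n = 3), and the Vector coefficient of variation, 67.3%, was at percentile 98.3 among all genes tested. The log2 fold change of -0.58 (SE 0.30) rested on that library, being 0.12 without Vector replicate 2 and -0.88 without Vector replicate 1, where it was past the threshold. With all 6 libraries and no filter on low counts, TST was also past the threshold, at -0.59, which made 3 of the set. Vector replicate 2 was also the highest Vector library for SQOR, MPST and ETHE1. The ratio of TST to MPST was 2.40, 4.49 and 2.40 in the Vector libraries and 3.39, 3.56 and 4.30 in the OE-MMP28 libraries.

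SUOX, sulfite oxidase (ENSG00000139531, chromosome 12, 55997180 to 56006641, plus strand), was at 5.12, 6.96 and 7.19 FPKM in the Vector libraries and at 7.37, 7.94 and 7.95 FPKM in the OE-MMP28 libraries. Each OE-MMP28 library lay above each Vector library, by a margin that was narrow at the nearest pair. The group values were 6.42 ± 1.14 and 7.75 ± 0.329 FPKM (SD, n = 3), and the log2 fold change of 0.28 (SE 0.17) was not past the threshold in the 6 libraries together or in any of 18 alternative fits, and was 0.14 without Vector replicate 1 and at most 0.37 with another library left out. Over all genes tested, 19.5% had groups that did not overlap with OE-MMP28 higher. The ratio of SUOX to SQOR was 2.14, 1.69 and 2.24 in the Vector libraries and 24.0, 38.8 and 45.9 in the OE-MMP28 libraries.

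**Figure D3:**
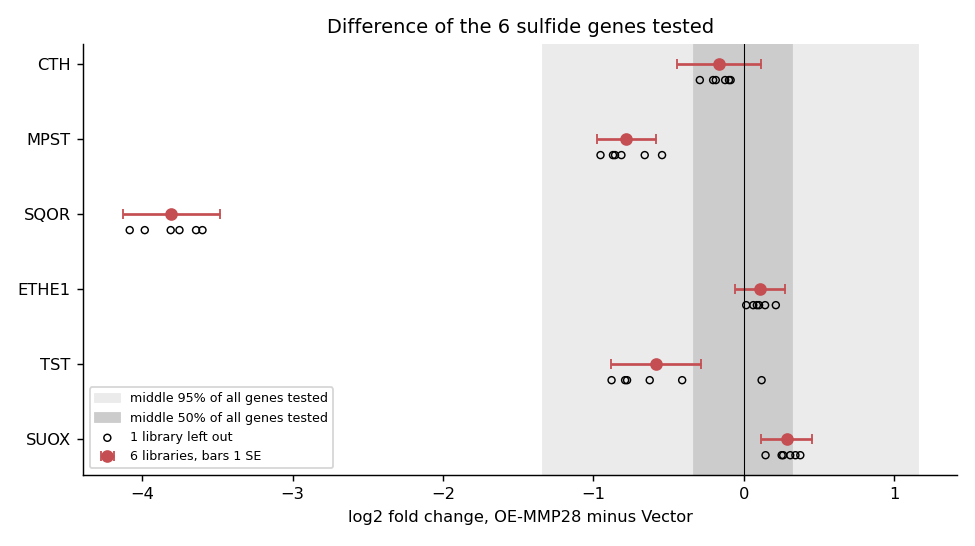
Log2 fold change (horizontal axis, OE-MMP28 over Vector) of the 6 sulfide genes tested, with filled points and bars for the value and 1 SE from 6 libraries, open points for the 6 fits that each left out 1 library, and shading for the middle 50% and 95% of all genes tested. SQOR at -3.81 lies outside the shading in all fits, MPST lies between -0.95 and -0.54, and 1 open point of TST lies above 0.

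Ordered by mean FPKM, the Vector group ran TST, ETHE1, MPST, SUOX, SQOR, CTH and CBS, and no neighbours in that order overlapped between libraries. In the OE-MMP28 group the order was TST, ETHE1, SUOX, MPST, CTH, SQOR and CBS, with TST and ETHE1 overlapping and SUOX and MPST overlapping. SQOR thus stood above CTH in every Vector library and below it in every OE-MMP28 library. The summed FPKM of the 7 genes was 59.8, 122 and 70.9 in the Vector libraries and 51.7, 67.1 and 74.4 in the OE-MMP28 libraries, of which SQOR made 4.00%, 3.39% and 4.53% and then 0.594%, 0.305% and 0.233%. The orders and shares here, and the ratios to SQOR above, use the deposited FPKM, with SQOR scaled to its 3088 exon bases. Had reads in its shared exons been dropped, SQOR would be 1.40-fold higher in both groups. Its highest Vector library would then lie above the lowest Vector library of SUOX. The place of CBS rests on counts that are uncertain because of CBSL.

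The genes with the profile most like that of SQOR were sought among the genes tested whose mean over the 6 libraries was at least 1 FPKM. They were found by the Euclidean distance between log2 CPM over the 6 libraries, each gene centred on its own mean. They were CEACAM5, a cell-surface adhesion glycoprotein (distance 0.65), TNFRSF19, a receptor of the tumour necrosis factor receptor superfamily (0.80), SCEL, sciellin, a precursor of the cornified envelope (0.87), ANKRD20A5P, a pseudogene (0.88), and PLIN2, a coat protein of lipid droplets (1.06). Their log2 fold changes were -3.79, -3.54, -3.25, -3.07 and -2.97 in that order. All but CEACAM5 had an OE-MMP28 mean under 1 FPKM and so passed that limit through the Vector group.

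The steps around sulfide metabolism were covered by 6 lists with 75 genes, of which 66 were tested. They were listed by role, with earlier results of these data known. At an adjusted p under 0.05 (edgeR, p-values adjusted over all genes tested), 9 rose and 9 fell in the OE-MMP28 cells and 48 did not pass, a share past the threshold of 27.3% against 23.4% of all genes tested. The 9 higher genes were 13.6% of those tested against 11.7% of all genes, and the 9 lower genes were 13.6% against 11.6%. These shares were near the background, and the counts depended on single libraries: they were 5 higher without Vector replicate 2 and 1 lower without OE-MMP28 replicate 2. Only GPHN, COQ2, COQ5 and GLRX5 among the named genes stayed past the threshold in all 6 fits that left out 1 library.

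**Figure D4:**
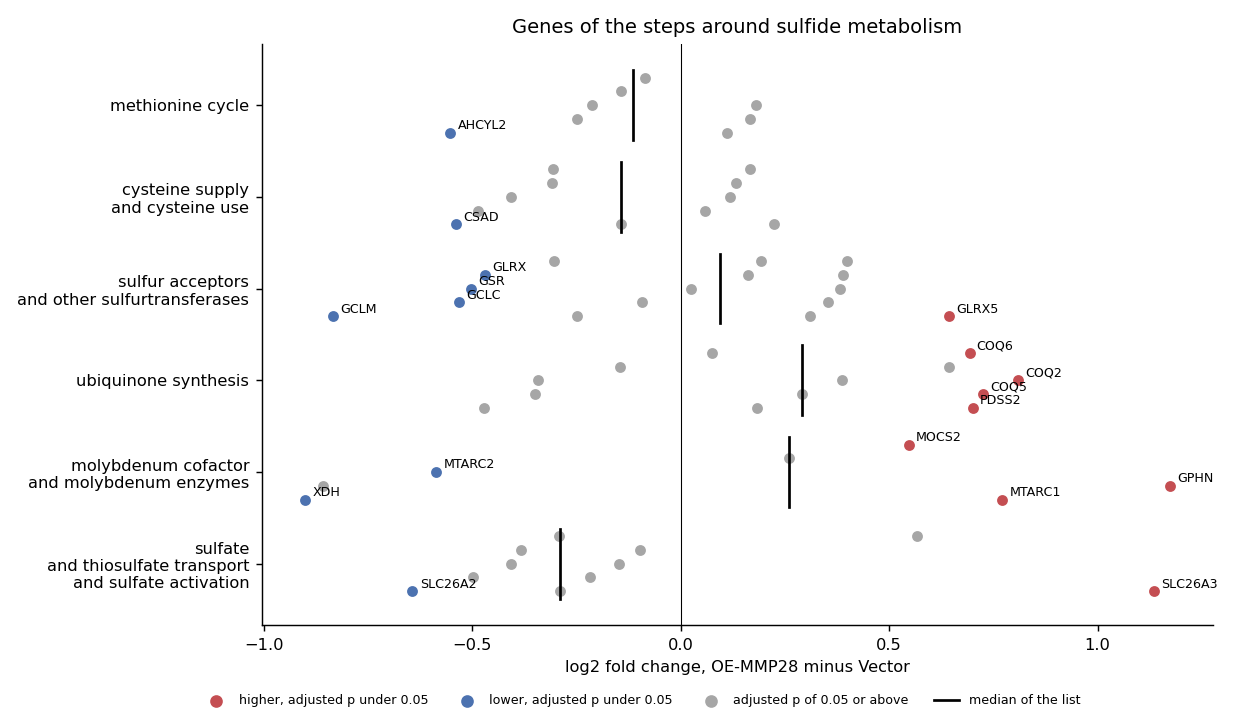
Log2 fold change (horizontal axis, OE-MMP28 over Vector) of the 66 tested genes of 6 lists around sulfide metabolism (rows), red for higher and blue for lower at an adjusted p under 0.05, grey for the rest, with a line at each list's median. The 18 named points are the genes past the threshold, 9 on either side of 0.

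Of the ubiquinone synthesis genes, which make the electron acceptor of SQOR, 4 of 13 tested rose and 9 did not pass at an adjusted p under 0.05 by edgeR, with a median log2 fold change of 0.29. The share past the threshold was 30.8%, against 23.4% of all genes tested. COQ2, which attaches the isoprenoid tail to the ring, went from 10.1 ± 1.57 to 17.6 ± 1.89 FPKM (SD, n = 3), for a log2 fold change of 0.81 (SE 0.17, adjusted p = 0.00175, edgeR). COQ5, a methyltransferase of the ring, went from 9.26 ± 0.852 to 15.2 ± 0.759 FPKM, at 0.72 (SE 0.16, adjusted p = 0.00294, edgeR). PDSS2, a subunit of the enzyme that makes the tail, rose by 0.70 (adjusted p = 0.0131, edgeR), and COQ6, a ring hydroxylase, by 0.69 (adjusted p = 0.0191, edgeR). PDSS2 and COQ6 were no longer past the threshold without Vector replicate 2 (0.57 and 0.62) or without OE-MMP28 replicate 2 (0.62 and 0.61). The median log2 fold change of the genes within 5 Mb was 0.34 for COQ5 and 0.58 for COQ6, and with that median taken off neither was past the threshold, at 0.38 and 0.11. An antisense gene, ENTPD5, covers 37.3% of the COQ6 exon bases and had 465 to 997 counts per library against 86 to 199 for COQ6, so how much of the COQ6 count came from ENTPD5 cannot be told without the strand setting. COQ8A, a kinase-like protein of ubiquinone synthesis named after its values were seen, had non-overlapping groups at 4.05 ± 0.304 and 2.89 ± 0.527 FPKM (SD, n = 3). The difference was -0.47 on the log2 scale (adjusted p = 0.0575, edgeR), and COQ8A was lower past the threshold in 6 of 18 alternative fits, among them DESeq2 and the other scalings. Of the other genes of this list not past the threshold, COQ3 and COQ7 had non-overlapping groups with OE-MMP28 higher, and COQ8B with OE-MMP28 lower. They were at 0.64, 0.39 and -0.35 (adjusted p = 0.0635, 0.111 and 0.229, edgeR) and were named after their values were seen.

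The molybdenum cofactor, which SUOX needs, and the enzymes that carry it had 3 genes that rose and 2 that fell among 7 tested (edgeR, adjusted p under 0.05). That was 71.4% of a short list, against 23.4% of all genes tested. GPHN, gephyrin, which inserts molybdenum into the cofactor and also anchors receptors at inhibitory synapses, showed the largest rise of all 6 lists, from 2.40 ± 0.223 to 5.38 ± 0.654 FPKM (SD, n = 3), for a log2 fold change of 1.17 (SE 0.17, adjusted p = 7.02e-05, edgeR) in a neighbourhood with a median of 0.36. MOCS2, a molybdopterin synthase gene, rose by 0.55 (adjusted p = 0.0244, edgeR). The enzymes differed in direction: MTARC1, a mitochondrial amidoxime reducing enzyme, rose by 0.77 (adjusted p = 0.0133, edgeR), while its paralog MTARC2 fell by 0.59 (adjusted p = 0.0407, edgeR) and XDH, the xanthine dehydrogenase of purine breakdown, fell by 0.90 (adjusted p = 0.0120, edgeR). Without Vector replicate 2 the values of MTARC1, MOCS2, XDH and MTARC2 were 0.58, 0.42, -0.61 and -0.36, none of them past the threshold. MOCS2 was also lost without OE-MMP28 replicate 1 or 3 (0.41 and 0.56), XDH without OE-MMP28 replicate 2 (-0.88), and MTARC2 without any 1 library except Vector replicate 1 (-0.64 to -0.36). With the local median taken off, MOCS2, XDH and MTARC2 were at 0.45, -0.39 and -0.52 and were not past it.

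Among 16 acceptors of sulfur and other sulfurtransferases, 4 fell and 1 rose by edgeR at an adjusted p under 0.05. This made 31.25% past the threshold, against 23.4% of all genes tested. Without OE-MMP28 replicate 1 the counts were 3 that fell and 4 that rose, and without OE-MMP28 replicate 2 or 3 none of the 4 falls was past the threshold. GCLM and GCLC, the modifier and catalytic subunits of the enzyme that starts glutathione synthesis, went from 3.48 ± 1.15 to 1.94 ± 0.368 FPKM and from 11.5 ± 2.85 to 7.91 ± 0.808 FPKM (SD, n = 3). Their log2 fold changes were -0.83 (SE 0.22, adjusted p = 0.0104, edgeR) and -0.53 (SE 0.17, adjusted p = 0.0292, edgeR). GSR, glutathione reductase, fell by 0.50 (adjusted p = 0.0342, edgeR) and GLRX, a cytosolic glutaredoxin, by 0.47 (adjusted p = 0.0481, edgeR). GSS, the enzyme of the second step of glutathione synthesis, was at 0.38 (adjusted p = 0.0603, edgeR), with groups that did not overlap and OE-MMP28 higher. TXN2, of the same list, was at 0.40 (adjusted p = 0.0706, edgeR), also without overlap and with OE-MMP28 higher. Both were named after their values were seen. GCLM and GCLC were not past the threshold without Vector replicate 1 (-0.54 and -0.32), without OE-MMP28 replicate 2 (-0.82 and -0.58) or without OE-MMP28 replicate 3 (-0.72 and -0.45). GSR was lost without those 3 libraries or Vector replicate 3 (-0.58 to -0.34) and with its local median of -0.32 taken off (-0.18), and GLRX without any 1 library except Vector replicate 1 (-0.54 to -0.38) and with the local median taken off (-0.49). GLRX also missed the threshold with the replicate number as a block (-0.47, adjusted p = 0.0597, edgeR). GLRX5, a mitochondrial glutaredoxin of iron-sulfur cluster assembly, rose from 13.2 ± 1.01 to 20.5 ± 1.03 FPKM (SD, n = 3), by 0.64 (SE 0.15, adjusted p = 0.00494, edgeR), but the genes within 5 Mb had a median of 0.55, and with it taken off the value was 0.090 and not past the threshold. An antisense gene, SNHG10, covers 13.7% of its exon bases. TXN, thioredoxin, the acceptor of sulfur from MPST, was at 194 ± 36.4 and 246 ± 15.4 FPKM (SD, n = 3), with groups that did not overlap and a log2 fold change of 0.35 (adjusted p = 0.103, edgeR), and it was past the threshold without Vector replicate 1 (0.50) and at 0.22 without Vector replicate 2. SELENBP1, a methanethiol oxidase that releases sulfide, was at 7.19 ± 1.23 and 7.24 ± 0.903 FPKM, a log2 fold change of 0.024 (adjusted p = 0.942, edgeR).

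Of the tested genes on the lists for the amino acids from which sulfide is made, 12.5% (methionine cycle) and 9.09% (cysteine) were past the threshold. Over all genes tested the share was 23.4%, and with 8 and 11 tested these lists are small. In the methionine cycle 1 of 8 tested fell and 7 did not pass (edgeR, adjusted p under 0.05). The gene that fell was AHCYL2, a relative of adenosylhomocysteinase without its known activity, from 13.2 ± 1.68 to 8.96 ± 1.51 FPKM (SD, n = 3), for a log2 fold change of -0.55 (SE 0.16, adjusted p = 0.0182, edgeR). AHCY, the adenosylhomocysteinase that yields homocysteine, was at -0.21 (adjusted p = 0.303, edgeR), and MAT2A, which makes S-adenosylmethionine, was at 0.18 (adjusted p = 0.391, edgeR). MAT2A was past the threshold, at 0.60, only with its local median of -0.42 taken off. Of 11 tested genes of cysteine supply and use, 1 fell: CSAD, an enzyme of taurine synthesis, went from 5.13 ± 0.550 to 3.50 ± 0.789 FPKM (SD, n = 3), at -0.54 (SE 0.19, adjusted p = 0.0491, edgeR). AHCYL2 was lost without Vector replicate 1 or 3 or OE-MMP28 replicate 3 (-0.46, -0.54 and -0.42), and CSAD without Vector replicate 2 or 3 or OE-MMP28 replicate 1 or 2 (-0.53 to -0.41). SLC7A11, the cystine importer, was at 12.8, 6.47 and 6.67 FPKM in the Vector libraries and at 7.23, 6.61 and 4.60 FPKM in the OE-MMP28 libraries, with overlapping groups and a log2 fold change of -0.49 (adjusted p = 0.120, edgeR). Vector replicate 1 was the highest of the 6, and without it the value was -0.087, while without Vector replicate 2 it was -0.66 and past the threshold. CDO1, the dioxygenase that commits cysteine to sulfinate, never drew more than 3 counts and was not tested.

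The transport of sulfate and thiosulfate and the activation of sulfate, which follow SUOX and TST, had 1 gene that rose and 1 that fell among 11 tested (edgeR, adjusted p under 0.05), with a median log2 fold change of -0.29. The share past the threshold was 18.2%, against 23.4% of all genes tested. SLC26A2, a sulfate transporter of the cell surface, fell from 1.48 ± 0.280 to 0.939 ± 0.130 FPKM (SD, n = 3), by 0.64 (SE 0.21, adjusted p = 0.0299, edgeR), and was lost without Vector replicate 1 or OE-MMP28 replicate 2 or 3 (-0.49, -0.61 and -0.58). SLC26A3, an anion exchanger of the gut, rose from 0.627 ± 0.132 to 1.37 ± 0.276 FPKM (SD, n = 3), by 1.14 (SE 0.30, adjusted p = 0.00895, edgeR), and was lost without OE-MMP28 replicate 2 (1.05). It was named after its values were seen, since its mean was under 1 FPKM. SLC25A10, the mitochondrial carrier that moves thiosulfate and sulfate, was at 0.57 (adjusted p = 0.111, edgeR), with overlapping groups and a gene on the same strand, AC139530.2, over 46.6% of its exon bases, and it was 0.26 without OE-MMP28 replicate 3 and 0.83, past the threshold, without OE-MMP28 replicate 1. PAPSS2, which activates sulfate for transfer, was at -0.29 (adjusted p = 0.230, edgeR).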

How the data were processed

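Total RNA of AsPC-1 cells was sequenced in 6 libraries, and the sample titles gave each library's group and replicate number. The submitters' processing notes name HISAT2 2.0.5 and featureCounts 1.5.0-p3, and the settings for strand, overlapping genes and reads with several matches are not given in the sources used here. The authors deposited 1 table with whole-number read counts per gene and library, not normalized, and FPKM values that the authors scaled to gene length and library total. Columns of the authors' own comparison (log2 fold changes and p-values) were not used. All 58735 genes carried the identifiers and coordinates of GENCODE release 29 on GRCh38.

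Counts were tested with edgeR 4.0.16 (quasi-likelihood, TMM scaling, group alone in the model, R 4.3.3) on the 15319 genes that filterByExpr kept (at least 10 counts, total at least 15), and p-values were adjusted over all of them by Benjamini-Hochberg. The study's methods name limma, and since counts were deposited, limma 3.58.1 and DESeq2 1.42.0 were alternatives. The sulfide genes and all lists were chosen with earlier results of these data known, so no p-value is given for the sulfide genes. The lists were drawn up by role, but for the same reason the p-values of their genes are read as description. Related genes were named by a rule: at most 4 per list and direction past the threshold with a mean of at least 1 FPKM, plus genes chosen by role. COQ8A, COQ3, COQ7, COQ8B, SLC26A3, GSS and TXN2 were named outside the rule, after their values were seen. The genes most like SQOR were the 5 at the smallest distance between log2 CPM values (prior count 2), among genes tested with a mean of at least 1 FPKM. Local medians were taken over tested genes within 5 Mb, with at least 10 genes. MTARC1, MTARC2 and BPNT2, whose symbols in the table differ (the first pair as dates), were matched by gene identifier, and promoter windows from RefSeq matched 5 of the 7 sulfide genes. Alternatives also left out each library, changed the scaling and the filter, or used FPKM with pseudocounts of 1 and 0.1.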

Additional observations from a re-analysis of the deposited data

How the results depend on the processing

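SQOR, ETHE1, MPST, CTH and SUOX kept their direction in every alternative fit, and TST turned to 0.12 without Vector replicate 2 (-0.88 to 0.12 with 1 library left out). The 2 sulfide genes past the threshold became 1 under limma on log2(FPKM + 1) and on log2(FPKM + 0.1) and 0 under limma on log2(FPKM + 1) without a filter, and were 2 to 3 when 1 library was left out. The 9 related genes that were higher became 4, 4 and 0 in those 3 fits, and 5 to 12 with 1 library left out. The 9 that were lower became 0, 0 and 0, and 1 to 6 with 1 library left out. Over all genes, limma without a filter called 94 higher and 78 lower of 58735, against 1795 and 1784 in edgeR, and leaving out OE-MMP28 replicate 2 gave 985 and 1044. SELENBP1, at 0.024, turned to -0.098 without Vector replicate 1, -0.0039 without OE-MMP28 replicate 2, -0.066 without OE-MMP28 replicate 3 (-0.098 to 0.14 with 1 library left out), -0.024 under upper-quartile scaling, -0.0042 without mitochondrial genes and -0.018 with the local median taken off, and PAPSS2 turned to 0.17 with the local median taken off. The cause was not tested.

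With the replicate number as a block, 2 sulfide genes, 9 higher and 9 lower related genes were past the threshold, with GLRX lost and COQ8A gained (-0.49, adjusted p = 0.0490, edgeR) among the lower ones. The deviations of libraries with the same number correlated at 0.017, 0.0080 and -0.088 across genes, so the numbers were not taken to pair the libraries, and no library correlated best with its own number. Counts under 20 per library limit the precision of SQOR in the OE-MMP28 group. CBS could not be compared from these counts, since how reads that also match CBSL were counted is not known, whatever the depth.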
